A study of Homo sapiens with 8 samples.

Results

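The genes of cholesterol and fatty acid synthesis were measured in the small cell lung cancer line NCI-H82, made to carry a doxycycline-inducible RB1 transgene (pTripZ RB1). They were chosen by symbol from a list of the SREBP system and of the enzymes that lead from acetyl-CoA to cholesterol, isoprenoids and unsaturated fatty acids. All 35 listed genes were among the 25337 genes of the table, and all 35 were among the 12013 that passed the filter on level. They comprised 5 genes of the SREBP system, 8 of the mevalonate and isoprenoid steps, 11 of the squalene and sterol steps, 9 of fatty acid synthesis, and the pair STARD4 and LPIN1.

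Sterol regulatory element-binding proteins (SREBPs) are transcription factors made as precursors in the endoplasmic reticulum. When membrane sterol is low, the escort protein SCAP carries them to the Golgi, where proteases release the part that enters the nucleus and turns on the genes of sterol and fatty acid synthesis. When sterol is ample, the INSIG proteins hold SCAP back. SREBF2 encodes the form known mainly for cholesterol genes and SREBF1 the forms known mainly for fatty acid genes. Small cell lung cancer, a neuroendocrine tumour, commonly lacks the retinoblastoma protein pRB, which is best known as a repressor of E2F-driven cell cycle genes.

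RNA was sequenced from 4 groups of 2 libraries each, 8 in total, all from cells with the transgene. Cells called pRB+ AZD2811 received 0.5 µg/mL doxycycline for 96 h and, for the last 48 h, 32 nM AZD2811, which blocks the mitotic kinase Aurora B and which the sample titles name AZD1152. Cells called pRB+ control received the same doxycycline, with vehicle in place of the inhibitor. The pRB- AZD2811 and pRB- control groups were grown without doxycycline, with and without the inhibitor. No group had doxycycline without induced RB1, so effects of doxycycline and of pRB cannot be told apart. Whether the cells were 1 clone or a pool is not given in the sources used here, and neither is whether the replicates, which the series calls biological, were separate cultures, or what the name it gives each of them stands for; p-values then measure the spread between these libraries, which may be technical.

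RB1 stood at 6.36 to 7.67 scaled FPKM in the pRB+ libraries and at 0.801 to 0.950 in the pRB- libraries. Scaled FPKM are fragments per length and depth (FPKM, as deposited) after rescaling between libraries. Estimated depth was 23300000 to 33700000 mapped fragments per library. The noncoding RNA RMRP separated 3 libraries (replicate 1 of pRB+ AZD2811, replicate 2 of pRB+ control and replicate 1 of pRB- AZD2811) at 5792 to 14003 scaled FPKM from the other 5 at 21.2 to 165. These 3 are called RMRP-rich; the values of the lipid genes within each kind of library are given with the results. The neuroendocrine markers NEUROD1, INSM1, CHGA, CHGB, SYP, NCAM1 and SCG2 each had a mean of at least 1 scaled FPKM. The log2 difference in pRB+ against pRB- cells was -0.36 for NEUROD1 and 0.58 for CHGA (adjusted p = 0.0330 and 0.0242 with limma), and their part in the results below was not tested. All 14 markers of immune, stromal, vascular, epithelial, liver and fat cells had means under 1, with sums of 0.741 to 1.00 in pRB+ and of 0.764 to 1.26 in pRB- libraries; 2 of the 14, SFTPC and SCGB1A1, were listed at 0 in every library.

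The promoters of 4 sterol genes that the results below turn on are shown first, as sequence upstream of the RefSeq transcription start. SREBPs bind the sterol regulatory element, often near a CCAAT box, which is bound by the factor NF-Y. Capitals mark CCAAT on either strand (ATTGG on the strand shown) and the core of the element, searched as TCACNCCA. The coordinates are those of GRCh38.p14 in RefSeq, while the expression values rest on hg19. INSIG1 lies at chr7:155297628-155297775 (plus strand), MSMO1 at chr4:165327419-165327622 (plus strand), HMGCS1 at chr5:43313513-43313662 (minus strand) and IDI1 at chr10:1049171-1049369 (minus strand); each is the longest run within the 250 bases before the start that holds no exon of GENCODE 29. HMGCS1 and IDI1 have several entries each, and for them the stretch shown was picked because it holds a CCAAT box. The stretches end 103 (INSIG1), 47 (MSMO1), 101 (HMGCS1) and 52 (IDI1) bases before the start, and exons of the same gene lie in each window. For INSIG1 and IDI1 the bases just after the start were not found in a GENCODE 29 transcript of the gene.
INSIG1: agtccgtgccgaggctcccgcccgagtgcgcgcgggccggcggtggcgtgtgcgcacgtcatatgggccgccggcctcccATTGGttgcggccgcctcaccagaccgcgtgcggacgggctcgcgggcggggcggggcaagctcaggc
MSMO1: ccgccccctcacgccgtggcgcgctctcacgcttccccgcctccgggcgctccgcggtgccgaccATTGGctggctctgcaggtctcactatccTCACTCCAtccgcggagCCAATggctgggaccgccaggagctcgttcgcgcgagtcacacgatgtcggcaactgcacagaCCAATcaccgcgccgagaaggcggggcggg
HMGCS1: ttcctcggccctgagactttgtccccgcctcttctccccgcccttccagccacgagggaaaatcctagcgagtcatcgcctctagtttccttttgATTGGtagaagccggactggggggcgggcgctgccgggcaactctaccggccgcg
IDI1: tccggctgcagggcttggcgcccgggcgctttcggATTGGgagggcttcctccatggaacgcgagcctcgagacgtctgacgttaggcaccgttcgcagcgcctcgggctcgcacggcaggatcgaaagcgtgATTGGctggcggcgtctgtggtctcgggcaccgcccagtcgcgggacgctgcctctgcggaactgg

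The stretch shown of INSIG1 held 1 CCAAT box and that of MSMO1 held 3; those of HMGCS1 and IDI1, picked for the motif, held 1 and 2. Of the 35 genes, 31 had a promoter entry, and in the 250 bases before the start, in any of a gene's entries, 21 of them (67.7%) held CCAAT on either strand, against 42.4% of the 8754 tested genes with an entry and 37.0% of all 27305. TCACNCCA occurred in 3 of 31, namely MSMO1, MVK and SREBF2 (9.68%), against 3.90% of tested genes. The longer form TCACNCCAC, which contains it, occurred in SREBF2 only among the 31, and in 1.17% of tested genes. Of the 8 genes that fell in pRB+ cells, described next, 6 had an entry and all 6 held CCAAT, as did 15 of the other 25. ACAT2, FDFT1, SQLE and FASN had no entry.

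To ask what induced pRB was associated with, all 4 pRB+ libraries were set against all 4 pRB- libraries, with the inhibitor as a further term. Genes of the cholesterol line were lower in pRB+ cells, among them enzymes of the mevalonate and sterol steps and the feedback gene INSIG1. INSIG1, HMGCS1, MVK, IDI1, FDFT1, SQLE, MSMO1 and EBP fell, 8 of 35, and 0 of 35 rose (limma, Benjamini-Hochberg adjusted p under 0.05 over all genes). Among all 12013 genes 5.81% fell and 5.34% rose. The sterol branch held 4 of the 8, the mevalonate branch 3 and the SREBP system 1, while 0 of 9 fatty acid genes passed (2 of the 9 had an unadjusted p under 0.05). An unadjusted p under 0.05 in the lower direction was reached by 19 of 35, against 16.9% of all genes. Over the 35 genes the median log2 difference was -0.22, against -0.01 over all genes, and 30 of 35 lay below 0, against 52% of all genes. In 13 of 35 every pRB+ library lay below every pRB- library, against 11.2% of all genes, and in 0 every one lay above, against 10.7%. Summed over the 35 genes, the level was 634 and 742 scaled FPKM in the pRB+ AZD2811 libraries and 666 and 701 in the pRB+ control libraries. The sum was 803 and 839 in the pRB- AZD2811 libraries and 985 and 884 in the pRB- control libraries. In bulk RNA, fewer cells with a transcript and less transcript per cell cannot be told apart.

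The calls depended on which libraries entered the fit. The count of 8 became 0 when any one of 5 libraries was left out: replicate 1 of pRB+ AZD2811, of pRB+ control, of pRB- AZD2811 or of pRB- control, or replicate 2 of pRB- control; at most 0.0166% of all genes then passed. Leaving out replicate 2 gave 19 genes for pRB+ AZD2811 (with 15.2% of all genes), 2 for pRB+ control (MVK and FDFT1, with 3.90% of all genes) and 7 for pRB- AZD2811 (with 8.37% of all genes). All 8 log2 differences were below 0 in each of these fits, a direction for which the genes had been picked in the same libraries.

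**Figure D1:**
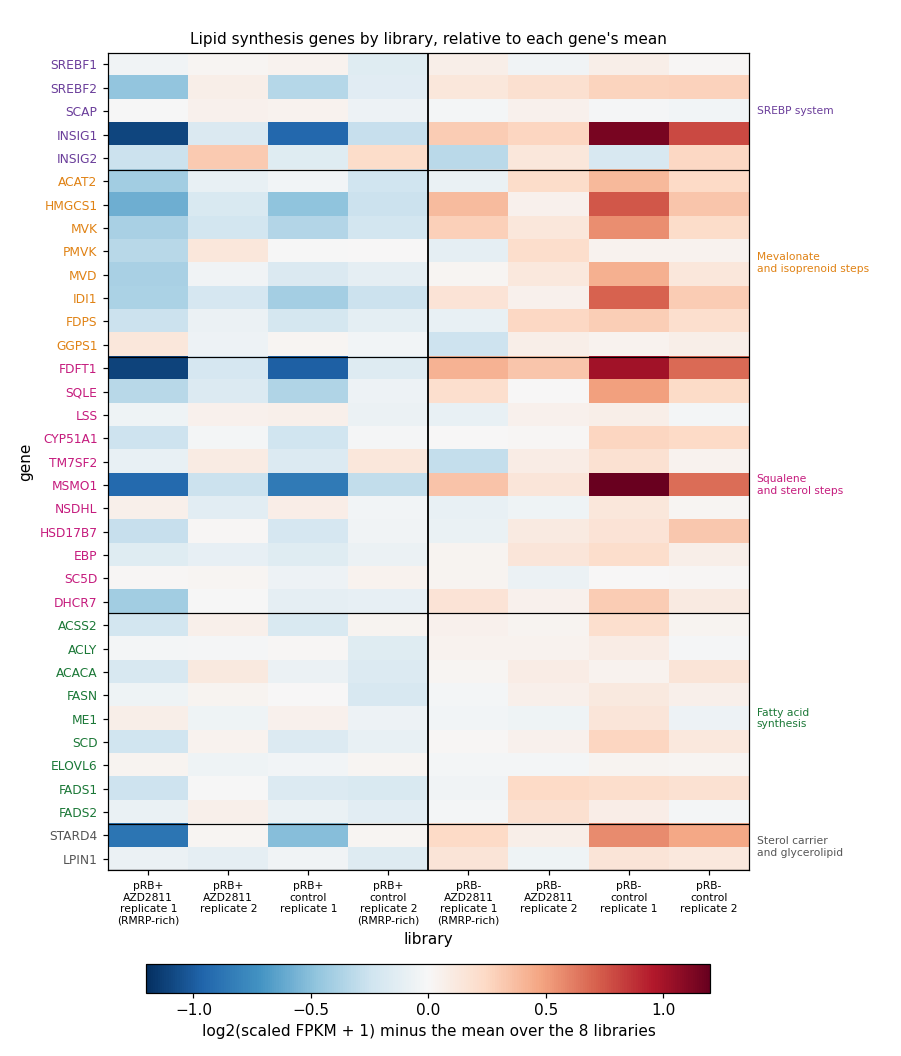
Level of each of the 35 genes (rows, grouped by branch) in each library (columns, pRB+ left of the vertical line, pRB- right of it), as log2(scaled FPKM + 1) minus the gene's mean over the 8 libraries. Blue is below and red above the mean; INSIG1, FDFT1 and MSMO1 are bluest in the replicate 1 libraries of pRB+ cells and reddest in the pRB- control libraries.

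Of the SREBP system INSIG1 passed the test and SREBF2 came nearest to it. INSIG1, the feedback protein that holds SCAP back and whose own gene is switched on by SREBPs, had 3.60 and 7.76 scaled FPKM in pRB+ AZD2811 libraries and 4.16 and 7.19 in pRB+ control libraries, against 11.3 and 10.8 in pRB- AZD2811 and 20.7 and 16.2 in pRB- control libraries (replicates 1 and 2 in this order, here and below). The 2 arms did not overlap, and the pRB- control libraries were the highest. Its mean was 5.68 ± 2.10 in pRB+ and 14.7 ± 4.68 in pRB- libraries (SD, n = 4 each), a level 61.5% lower, with a log2 difference of -1.25 ± 0.25 (SE; limma, adjusted p = 0.0311). SREBF2 had 25.3 and 37.4 in pRB+ AZD2811 and 27.8 and 32.2 in pRB+ control libraries, against 39.2 and 40.8 in pRB- AZD2811 and 43.1 and 43.3 in pRB- control libraries. Its arms did not overlap either, yet with a log2 difference of -0.44 ± 0.12 it missed the threshold (SE; limma, adjusted p = 0.0530).

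SREBF1, SCAP and INSIG2 overlapped between the arms. SREBF1 ranged from 6.49 to 7.50 scaled FPKM in pRB+ libraries (median 7.21) and from 7.02 to 7.71 in pRB- libraries (median 7.53). SCAP, the escort protein, lay between 18.7 and 20.3 in pRB+ libraries and between 19.1 and 20.3 in pRB- libraries. INSIG2, which also retains SCAP but is not known as an SREBP target in the way INSIG1 is, had 3.33 and 5.44 in pRB+ AZD2811 and 3.66 and 5.03 in pRB+ control libraries, against 3.15 and 4.67 in pRB- AZD2811 and 3.53 and 5.15 in pRB- control libraries. Each of its replicate 1 libraries lay below each of its replicate 2 libraries, in both arms. The log2 differences of SREBF1, SCAP and INSIG2 were -0.06 ± 0.06, 0.01 ± 0.04 and 0.07 ± 0.18 (SE; limma, adjusted p = 0.509, 0.920 and 0.828).

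In the mevalonate branch, which builds the isoprenoid units of cholesterol, 3 of 8 genes fell and 0 rose, with a median log2 difference of -0.37. HMGCS1, the synthase that makes HMG-CoA, had 4.34 and 6.08 scaled FPKM in pRB+ AZD2811 and 4.72 and 5.73 in pRB+ control libraries, against 9.41 and 7.30 in pRB- AZD2811 and 12.5 and 9.12 in pRB- control libraries. The highest pRB+ library lay below the lowest pRB- library, and the log2 difference was -0.75 ± 0.15 (SE; limma, adjusted p = 0.0296). MVK, the kinase that phosphorylates mevalonate, was even within pRB+ cells, at 5.5 and 6.29 under AZD2811 and 5.67 and 6.29 in control, against 9.35 and 8.36 in pRB- AZD2811 and 11.5 and 8.89 in pRB- control libraries. It had the smallest adjusted p of the 35 genes, with a log2 difference of -0.59 ± 0.09 (SE; limma, adjusted p = 0.0249). IDI1, the isomerase that interconverts the isoprenoid units, had 9.31 and 10.6 in pRB+ AZD2811 and 9.07 and 10.2 in pRB+ control libraries, against 14.0 and 12.9 in pRB- AZD2811 and 20.9 and 15.6 in pRB- control libraries. Here too the arms stood apart, with pRB- control replicate 1 highest, and the log2 difference was -0.62 ± 0.13 (SE; limma, adjusted p = 0.0309).

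The other 5 genes of the branch did not pass. FDPS, the farnesyl diphosphate synthase and the most highly expressed gene of the branch, had 64.4 and 73.5 scaled FPKM in pRB+ AZD2811 and 66.7 and 71.3 in pRB+ control libraries, against 72.6 and 92.1 in pRB- AZD2811 and 95.2 and 88.8 in pRB- control libraries. Its arms overlapped through pRB- AZD2811 replicate 1, and its log2 difference was -0.33 ± 0.09 (SE; limma, adjusted p = 0.0577). ACAT2, which joins acetyl-CoA units, stood at -0.39 ± 0.10 and MVD, the mevalonate diphosphate decarboxylase, at -0.36 ± 0.10 (limma, adjusted p = 0.0547 and 0.0590). PMVK, the kinase after MVK, stood at -0.09 ± 0.11 and GGPS1, which makes the longer geranylgeranyl unit outside the sterol line, at 0.03 ± 0.09 (limma, adjusted p = 0.594 and 0.835). FDPS has 8 annotated pseudogenes, CYP51A1 has 3, HSD17B7 has 2, and SCD and FADS2 have 1 each, so reads of these genes may be split among near-identical copies.

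In the squalene and sterol branch 4 of 11 genes fell and 0 rose, with a median log2 difference of -0.26. FDFT1, squalene synthase, which commits farnesyl units to sterols, had 25.4 and 48.6 scaled FPKM in pRB+ AZD2811 and 27.9 and 50.2 in pRB+ control libraries, against 75.4 and 71.1 in pRB- AZD2811 and 114 and 90.4 in pRB- control libraries. Within pRB+ cells both replicate 2 libraries lay far above both replicate 1 libraries, yet all 4 stayed below every pRB- library. The mean was 38.1 ± 13.2 in pRB+ and 87.7 ± 19.3 in pRB- libraries (SD, n = 4 each), a level 56.6% lower, with a log2 difference of -1.22 ± 0.25 (SE; limma, adjusted p = 0.0311). MSMO1, the oxidase that removes methyl groups from early sterols, had 9.07 and 15 in pRB+ AZD2811 and 9.62 and 14.6 in pRB+ control libraries, against 23.3 and 20.2 in pRB- AZD2811 and 42.6 and 29.4 in pRB- control libraries. Its mean of 12.1 ± 3.16 in pRB+ libraries, against 28.9 ± 9.93 in pRB- libraries (SD, n = 4 each), was 58.2% lower, with a log2 difference of -1.17 ± 0.23 (SE; limma, adjusted p = 0.0296).

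SQLE and EBP moved less. SQLE, the epoxidase of squalene and a rate-controlling step, had 34.8 and 39.1 scaled FPKM in pRB+ AZD2811 and 33.9 and 42.0 in pRB+ control libraries, against 50.6 and 44.2 in pRB- AZD2811 and 62.2 and 51.7 in pRB- control libraries. Its level was 28.2% lower in pRB+ libraries, with a log2 difference of -0.46 ± 0.10 (SE; limma, adjusted p = 0.0357). EBP, a late sterol isomerase, was the steadiest of the 8, at 49.8 and 51.3 in pRB+ AZD2811 and 49.9 and 52.5 in pRB+ control libraries, against 56.6 and 61.0 in pRB- AZD2811 and 63.9 and 58.0 in pRB- control libraries. A level 15% lower, with a log2 difference of -0.23 ± 0.05, passed the test (SE; limma, adjusted p = 0.0363).

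Of the 7 sterol genes that did not pass, DHCR7 (-0.32 ± 0.09), CYP51A1 (-0.26 ± 0.08) and HSD17B7 (-0.26 ± 0.09) came nearest (limma, adjusted p = 0.0687, 0.0763 and 0.108). DHCR7 is the reductase of the last sterol steps, CYP51A1 the demethylase of lanosterol, and HSD17B7 a ketosteroid reductase that works with MSMO1 and NSDHL. LSS, which closes the sterol rings, NSDHL, a partner of MSMO1 in demethylation, TM7SF2, a sterol reductase, and SC5D, a late desaturase, lay between -0.01 and 0.01 (limma, adjusted p = 0.910 to 0.951). Of 3 enzymes that act in succession, FDFT1 and SQLE fell, and LSS stood at -0.01 ± 0.06; the difference between enzymes was not tested.

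**Figure D2:**
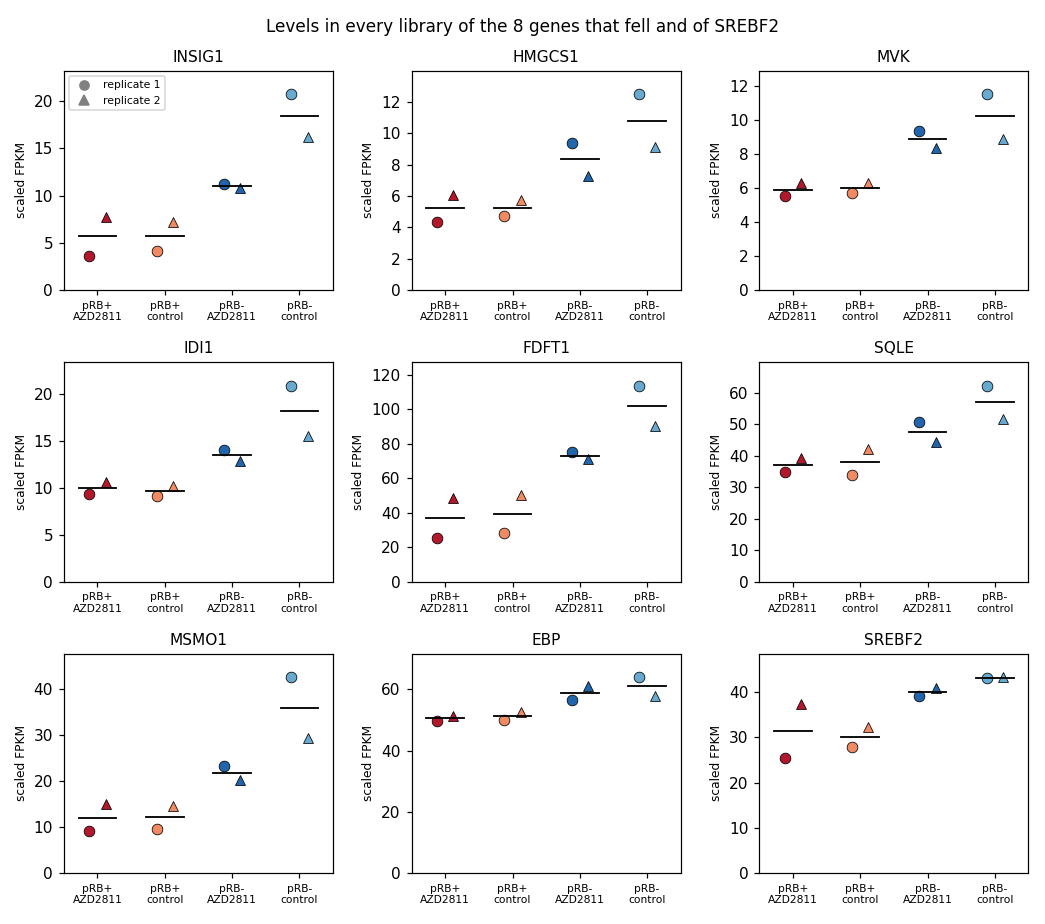
Level in every library of the 8 genes that fell in pRB+ cells and of SREBF2. The vertical axes are scaled FPKM from 0, circles and triangles are replicates 1 and 2, and lines are group means; in all 9 panels the pRB+ libraries lie below the pRB- libraries.

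In fatty acid synthesis 0 of 9 genes passed, with log2 differences from -0.29 to 0.00; whether the branches differ was not tested. ACLY, which makes cytosolic acetyl-CoA from citrate and had the highest mean of all 35 genes, had 104 and 105 scaled FPKM in pRB+ AZD2811 and 107 and 95.2 in pRB+ control libraries, against 109 and 109 in pRB- AZD2811 and 112 and 105 in pRB- control libraries. The arms overlapped, and the log2 difference was -0.08 ± 0.05 (SE; limma, adjusted p = 0.330). FADS1, a desaturase of polyunsaturated fatty acids, had the largest difference of the branch, -0.29 ± 0.08 (SE; limma, adjusted p = 0.0602). Its libraries read 24.0 and 28.7 in pRB+ AZD2811 and 25.6 and 25.2 in pRB+ control cells, against 27.8 and 34.0 in pRB- AZD2811 and 33.5 and 32.6 in pRB- control cells. SCD, the desaturase that makes oleate, stood at -0.22 ± 0.08 (limma, adjusted p = 0.0988). ACSS2, which makes acetyl-CoA from acetate, ACACA, the carboxylase that makes malonyl-CoA, and FADS2, the desaturase beside FADS1, lay between -0.16 and -0.11. ME1, the malic enzyme that supplies NADPH, and ELOVL6, an elongase of saturated chains, lay at 0.00 and -0.01. The branch median was -0.11, and FASN, the fatty acid synthase, stood at -0.10 ± 0.06 (limma, adjusted p = 0.296).

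STARD4, a carrier that moves sterol between membranes, had 2.62 and 5.75 scaled FPKM in pRB+ AZD2811 and 3.65 and 5.77 in pRB+ control libraries, against 6.85 and 6.0 in pRB- AZD2811 and 8.83 and 8.16 in pRB- control libraries. The arms did not overlap but came close, and the log2 difference of -0.67 ± 0.20 missed the threshold (SE; limma, adjusted p = 0.0719). LPIN1, a phosphatidate phosphatase of glycerolipid synthesis, ranged from 7.81 to 8.53 in pRB+ libraries (median 8.22) and from 8.5 to 9.95 in pRB- libraries (median 9.82). Its log2 difference was -0.19 ± 0.06 (SE; limma, adjusted p = 0.0765).

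**Figure D3:**
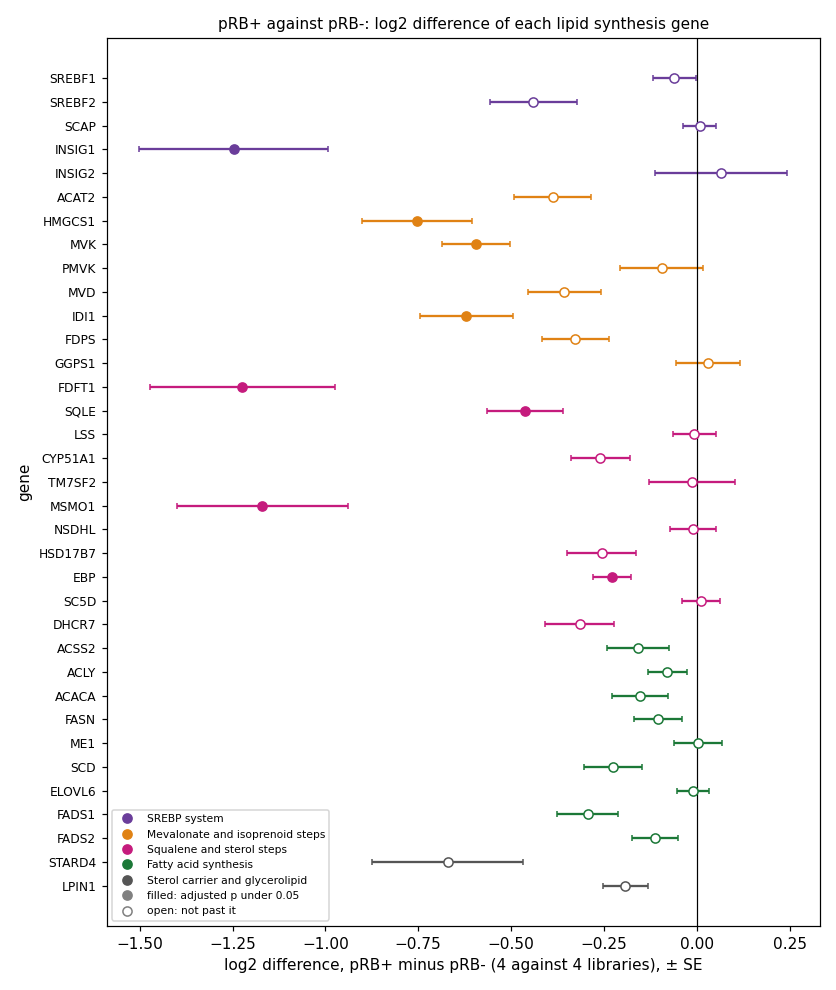
Log2 difference of each of the 35 genes, pRB+ minus pRB-, over 4 against 4 libraries, with bars of 1 SE and colours by branch. Filled points passed an adjusted p under 0.05; INSIG1, FDFT1 and MSMO1 lie beyond -1, and LSS, NSDHL, TM7SF2 and SC5D lie at 0.

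The spread between replicates was uneven. In pRB+ cells both replicate 1 libraries lay below both replicate 2 libraries in 21 of 35 genes and in 8 of the 8 that fell, against 22.2% of all genes. Highest over lowest within the pRB+ arm was 2.2 in STARD4, 2.15 in INSIG1 and 1.98 in FDFT1, but 1.06 in EBP. In pRB- cells both replicate 1 libraries lay above both replicate 2 libraries in 7 of 35 genes and 2 of the 8, against 20% of all genes. The pRB difference of these genes was also larger in the replicate 1 libraries, a gap that was not tested. There the log2 difference was -1.74 in INSIG1, -1.76 in FDFT1, -1.66 in MSMO1 and -1.10 in HMGCS1, and with the replicate 2 libraries alone it was -0.75, -0.69, -0.68 and -0.41. Over the 35 genes the median was -0.28 with 29 below 0 in replicate 1, and -0.14 with 30 below 0 in replicate 2. The median over all genes was -0.01 in each. With the replicate 1 libraries alone 8 genes passed, 5 of them among the 8 above, where 7.27% of all genes did. With the replicate 2 libraries alone 0 passed (limma, smallest adjusted p of the 8 genes 0.252), where 0.0166% of all genes did.

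Each pRB arm held RMRP-rich libraries, 2 in pRB+ and 1 in pRB-. Within the 5 libraries low in RMRP the median difference of the 35 genes was -0.21 with 31 below 0. Over all genes the median there was -0.01, with 51.7% below 0. Within the 3 RMRP-rich libraries the median of the 35 was -0.15 with 28 below 0, against 0 over all genes, with 49.6% below 0. INSIG1 stood at -1.29 within the 5 and at -1.0 within the 3, FDFT1 at -1.27 and -1.05, and MSMO1 at -1.22 and -0.96. These are differences of means without an inhibitor term, and the inhibitor was unevenly spread. Among the 3, the pRB- library had AZD2811, while 1 pRB+ library had it and 1 did not. Among the 5, 2 pRB- libraries were controls and 1 had AZD2811, against 1 of each in pRB+. In the 5 libraries alone 0 genes passed (limma, smallest adjusted p of the 8 genes 0.194), where 0.00832% of all genes did.

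**Figure D4:**
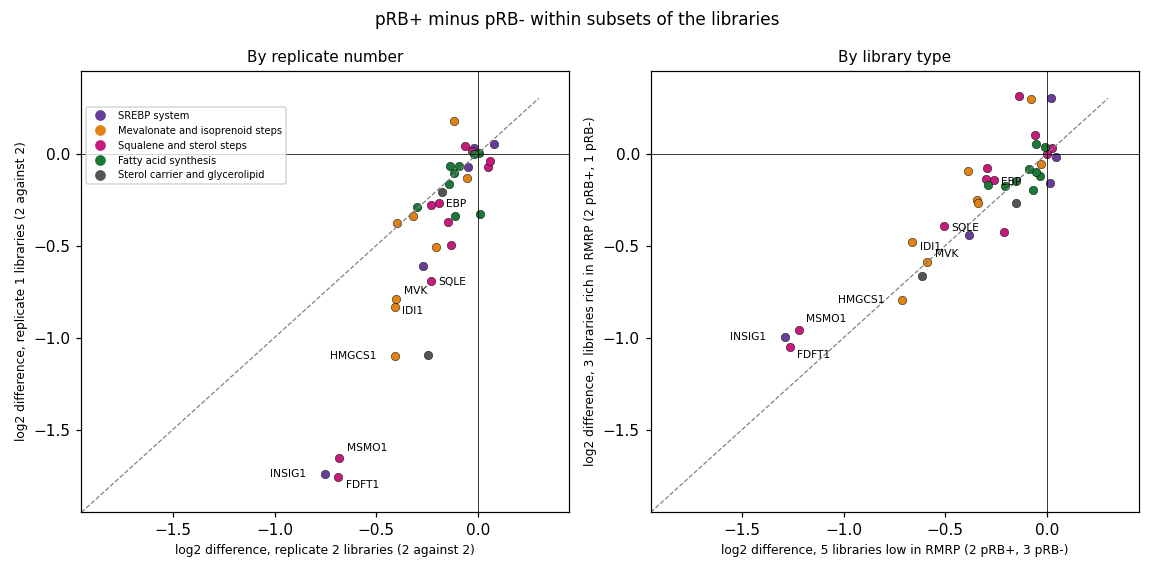
Log2 difference, pRB+ minus pRB-, of each of the 35 genes within subsets of the libraries: left, replicate 1 (vertical axis) against replicate 2 (horizontal axis); right, the 3 RMRP-rich libraries against the other 5. The dashed line marks equal values; FDFT1 lies at -1.76 in replicate 1 and at -0.69 in replicate 2, far below the line.

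Taken at each inhibitor setting, with 2 against 2 libraries, INSIG1, FDFT1 and MSMO1 again had the lowest pRB differences of the 35 genes, but no gene passed. Under AZD2811 0 of 35 genes passed (limma; 0.00832% of all genes in either direction), 7 had an unadjusted p under 0.05 in the lower direction against 6.46% of all genes, and 26 of 35 lay below 0, against 51%. The median was -0.14, but 0.15 with FPKM as deposited, where the median of all genes was 0.26. FDFT1 stood at -1.04 ± 0.36, INSIG1 at -0.92 ± 0.34, MSMO1 at -0.84 ± 0.30 and MVK at -0.52 ± 0.13 (SE, limma, adjusted p = 0.376, 0.383, 0.376 and 0.374). Without pRB+ AZD2811 replicate 1 the first 3 stood at -0.58, -0.46 and -0.51, and the median of the 35 genes at -0.05; without replicate 2 of that group INSIG1 stood at -1.39 and the median at -0.26. In control cells 0 of 35 passed (limma; 0.0333% of all genes were called lower), 18 had an unadjusted p under 0.05 in the lower direction against 10.1% of all genes, and 33 of 35 lay below 0, against 52.2%, with a median of -0.24. INSIG1 stood at -1.57 ± 0.34, MSMO1 at -1.50 ± 0.30, FDFT1 at -1.41 ± 0.36 and IDI1 at -0.84 ± 0.15 (SE, limma, adjusted p = 0.152, 0.144, 0.165 and 0.144). The pRB+ libraries were below the pRB- libraries without overlap in 16 of 35 genes under AZD2811, against 20.9% of all genes, and in 25 of 35 in control cells, against 31.1%.

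AZD2811 was compared with control within each pRB state, to ask whether Aurora B inhibition altered these genes. In pRB+ cells 0 of 35 genes passed and 0 had an unadjusted p under 0.05 in either direction (limma, adjusted p = 1; 0.00832% and 0.683% of all genes), with log2 differences from -0.18 to 0.09 and a median of -0.01. INSIG1 averaged 5.68 ± 2.94 scaled FPKM in pRB+ AZD2811 and 5.68 ± 2.15 in pRB+ control libraries (SD, n = 2 each). In pRB- cells 0 of 35 passed as well (limma; 0.0333% of all genes called lower), and IDI1 alone had an unadjusted p under 0.05, in the lower direction, where 1.78% of all genes did. Its log2 difference was -0.40 ± 0.15 (SE; limma, adjusted p = 0.992). Still, 31 of 35 lay below 0, against 53.5% of all genes, with a median of -0.12, and in 14 of 35 both AZD2811 libraries lay below both control libraries, against 17.4%.

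INSIG1, MSMO1 and FDFT1 had the lowest AZD2811 differences in pRB- cells. INSIG1 averaged 11 ± 0.312 scaled FPKM in pRB- AZD2811 and 18.5 ± 3.21 in pRB- control libraries (SD, n = 2 each). INSIG1 and MSMO1 both stood at -0.68, with SEs of 0.34 and 0.30, and FDFT1 at -0.46 ± 0.36 (limma, adjusted p = 0.992 for each). These values share the pRB- control libraries with the pRB difference in control cells, and pRB- AZD2811 replicate 1 is RMRP-rich. Without that library INSIG1 stood at -0.71 and MSMO1 at -0.78; without pRB- control replicate 1 MSMO1 stood at -0.42 and FDFT1 at -0.30.

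Whether the inhibitor acted differently in the 2 pRB states was tested as an interaction, the pRB difference under AZD2811 minus that in control cells. Here 0 of 35 genes passed and 0 had an unadjusted p under 0.05 (limma, adjusted p = 0.999993; 0.0166% and 0.641% of all genes). The interaction was above 0 in 32 of 35 genes and below 0 in 3, against 47.1% of all genes below 0. The median was 0.14 against 0.01 over all genes. The highest values were those of MSMO1 (0.66 ± 0.42), INSIG1 (0.65 ± 0.48) and IDI1 (0.44 ± 0.21; SE, limma, unadjusted p = 0.0749). These moved with single libraries: without pRB+ AZD2811 replicate 2 INSIG1 stood at 0.19 and MSMO1 at 0.33, with a median of 0.05 over the 35 genes, and without replicate 1 of that group INSIG1 stood at 1.11, MSMO1 at 1.00 and the median at 0.26. IDI1 stood at 0.24 without pRB- control replicate 1. Over 4 AZD2811 against 4 control libraries 0 of 35 passed and 0 had an unadjusted p under 0.05 (limma, adjusted p from 0.965 upward; 0% and 3.55% of all genes), with a median of -0.06.

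**Figure D5:**
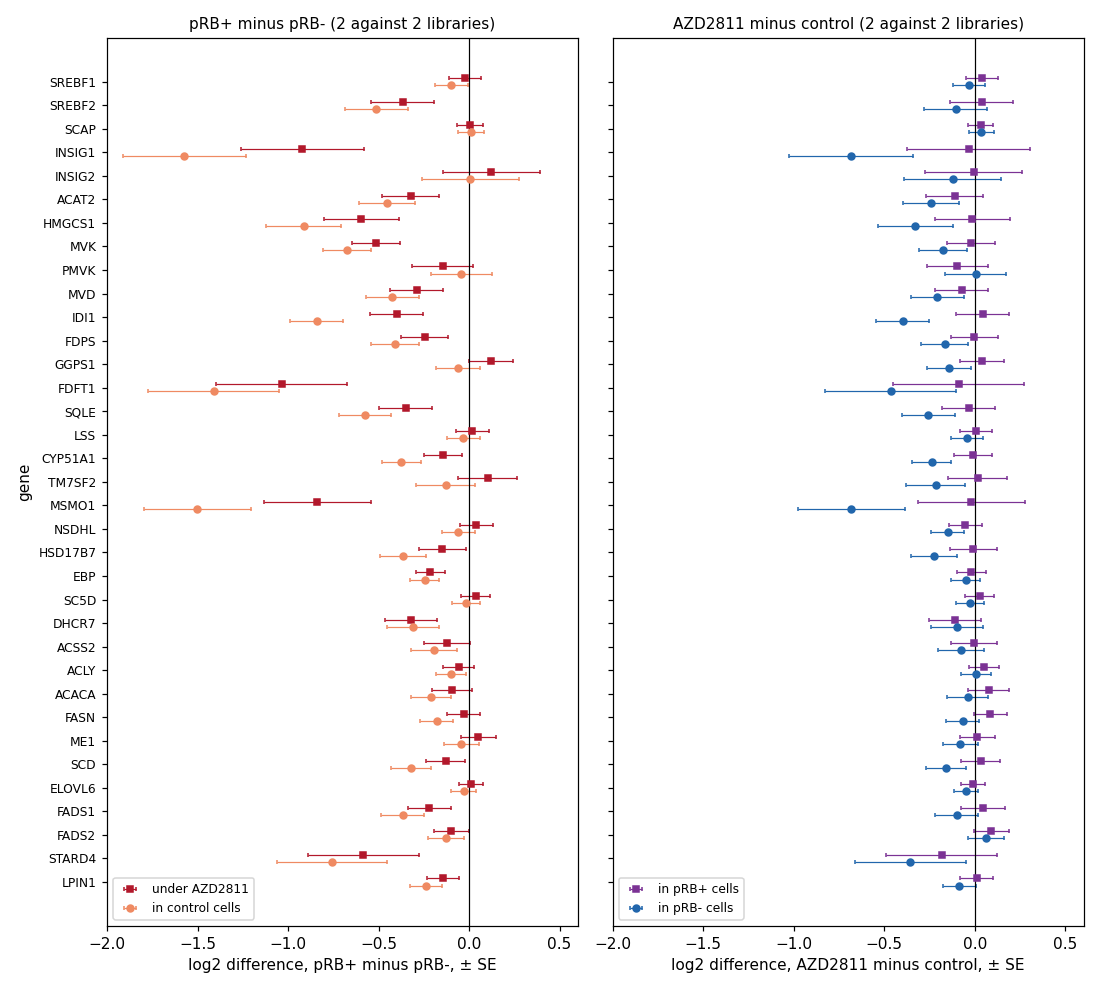
Log2 differences of the 35 genes with bars of 1 SE, from 2 against 2 libraries: left, pRB+ minus pRB- under AZD2811 and in control cells; right, AZD2811 minus control in pRB+ and in pRB- cells. INSIG1, FDFT1 and MSMO1 lie far below 0 on the left; on the right they lie near 0 in pRB+ cells and between -0.68 and -0.46 in pRB- cells.

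Across libraries, 31 of 35 genes had their highest value in a pRB- library, 23 of them in pRB- control replicate 1. The lowest value lay in a pRB+ library in 29 of 35, in pRB+ AZD2811 replicate 1 in 19. The exceptions to the first were the 4 genes with their highest value in a pRB+ library. Such counts were not made over all genes, so whether they are particular to these 35 or shared by genes in general is not known.

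Other genes of lipid metabolism were counted beside these. Of 35 further genes for SREBP processing, sterol sensing and efflux, fatty acid elongation and glycerides, and the use of isoprenoids, 32 passed the filter. In pRB+ against pRB- cells over 4 against 4 libraries 1 of the 32 fell and 0 rose, against 5.81% and 5.34% of all genes, with a median of -0.03. The 1 was ELOVL5, an elongase of polyunsaturated fatty acids, which fell by 0.25 ± 0.04 on the log2 scale (SE, limma, adjusted p = 0.0266). As given above, at most 0.0166% of all genes passed in this comparison when any one of 5 libraries was left out. The SREBP proteases and INSIG partner ligases passed in 0 of 4 (limma) and the sterol sensing, storage and efflux genes in 0 of 7. The isoprenoid users passed in 0 of 8. These lists are too short to set against the 5.81% and 5.34% of all genes. Over the 32 genes, 9 had an unadjusted p under 0.05 in the lower direction and 5 in the higher direction, against 16.9% and 15.6% of all genes. In each of the other comparisons 0 of the 32 passed, where at most 0.0666% of all genes did.

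Exons of several genes overlap those of other annotated genes; how many reads are shared is not known. Exons of another gene on the opposite strand overlap 16 of the 35, and 4 of the 8 that fell (HMGCS1, MVK, IDI1 and FDFT1). The kit is stranded, but whether strand was used in counting is not given in the sources used here, so reads from such partners cannot be told apart. INSIG1, SQLE, MSMO1 and EBP have no such partner. On the same strand, where strand would not separate the reads, exons of another gene overlap 5 of the 35, GGPS1, CYP51A1, TM7SF2, FADS1 and FADS2. MMAB, which overlaps MVK, stood at 5.43 and 5.87 scaled FPKM in pRB+ AZD2811 and 5.15 and 5.97 in pRB+ control libraries, against 6.13 and 7.03 in pRB- AZD2811 and 6.48 and 7.15 in pRB- control libraries, a log2 difference of -0.22 (limma, adjusted p = 0.0728).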

How the data were processed

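RNA was sequenced as stranded total RNA from 8 libraries, 2 in each of 4 groups, per the labels' protocols. The authors deposited FPKM for 25365 rows; STAR 2.5.1b, Cufflinks 2.2.1 and hg19 are named in the submitters' processing notes. Although the sheet is named for counts, its values are fractional and were read as FPKM, so limma was run in place of the count model planned for counts. Dropped were 28 rows with dates for names.

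Each library was rescaled by its log ratios to the geometric mean of all libraries, averaged after trimming 30% of the ratios and 5% of the levels at both ends; factors were 0.455 to 1.33. Genes with a mean of at least 1 were tested on log2(scaled FPKM + 1), which understates changes of low genes, with limma 3.58.1 in R 4.3.3 (intensity trend, Benjamini-Hochberg adjusted p under 0.05). Of 7 comparisons, 5 came from a fit of 4 group means (4 residual degrees of freedom) and 2, of 4 against 4 libraries, from an additive fit (5 residual degrees of freedom). Library type is RMRP above 1000 scaled FPKM. The script was tested on simulated data.

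Depth was estimated, since no total is listed, from the steps of low values in 1524 single-transcript genes longer than 1500 nucleotides, taking the length less 200. For each library's lowest gene of the 35, the counting error was 8.37% to 17.5% per kilobase of transcript, and for INSIG1 3.48% to 12.6%; these cover counting only.

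The 35 genes, the other lists and the 4 against 4 fits were chosen with earlier results of these data known. Values in every library are given for those of the 35 genes past the threshold and for the SREBP system except SREBF1 and SCAP. In each branch they are given for the gene with the largest pRB difference and the one with the highest level, except LPIN1. Others are given by differences, counts and ranges. The 4 promoters shown were picked from the genes that fell. Promoters are from RefSeq (GRCh38.p14); overlapping genes are from GENCODE 29. Alternatives were other scalings, no filter, another pseudocount, a replicate block, no small RNA genes, a library type term, fewer groups or libraries, and each library left out. Figures used Python 3.11.15 and matplotlib 3.10.9.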

Additional observations from a re-analysis of the deposited data

How the results depend on the processing

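The count of 8 genes that fell in pRB+ against pRB- cells over 4 against 4 libraries was 8 with a pseudocount of 0.1 (with 11.7% of all genes) and with median-ratio scaling (11.3%), and 10, these 8 included, with a library type term (12.8%). It was 0 with FPKM as deposited (where 1.18% of all genes passed), 2 with no filter (3.73%), 15 without small RNA genes (with 15.7% of all genes), 0 in the fit of 4 group means, 0 with only the 5 libraries low in RMRP, and 0 to 19 with each library left out. In the fit of 4 group means 0.0333% of all genes passed, and the smallest adjusted p of the 8 genes was 0.0516. With only the replicate 1 libraries the count was 8 (7.27% of all genes), and with only the replicate 2 libraries 0 (0.0166%); both were chosen after seeing the data. For most of these counts the cause was not tested; fewer libraries, or more genes, enter some fits by construction. Over 19 alternatives the 8 genes had 152 log2 differences, of which 152 were below 0 and 63 passed. The 8 genes were picked for being lower in these same libraries, and some alternatives leave the differences unchanged. The shared sign is therefore not independent support. In the other 6 comparisons 0 of 35 genes passed in every alternative run.

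The deviations of same-numbered libraries from their group means correlated unevenly between groups, from -0.46 to 0.47 across genes and from -0.57 to 0.73 without small RNA genes. The labels do not say that the numbers pair libraries, and the numbers were not taken as pairs. With a replicate block the count was 12, the 8 included, with 13.6% of all genes, and it stayed 0 in the other comparisons.

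Without rescaling the median of all genes was -0.33 for pRB in control cells, 0.26 for pRB under AZD2811, -0.64 for AZD2811 in pRB- cells, 0.60 for the interaction and -0.34 for AZD2811 over 4 against 4 libraries. The medians of the 35 genes were then -0.61, 0.15, -0.80, 0.75 and -0.42. Each of the 5 keeps the sign of the scaled value after that shift is taken off. Taking it off is itself a rescaling, so this is no separate check. For pRB over 4 against 4 libraries the medians were -0.24 (35 genes) and -0.03 (all genes), with the sign kept. For AZD2811 in pRB+ cells they were -0.04 and -0.05, and the sign of the scaled -0.01 was not kept.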
